A study of Homo sapiens with 16 samples.

Results

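The genes described here are 10 members of the NF-kB pathway, taken by symbol from a deposited table of 23459 human gene entries. The canonical arm holds 4 of them, the subunit gene NFKB1 and the inhibitor genes NFKBIA, NFKBIE and TNFAIP3. The non-canonical arm holds 6, the receptor gene CD40, the kinase gene MAP3K14, the inhibitor genes TRAF3 and BIRC3 and the subunit genes NFKB2 and RELB. All 10 were found, each as 1 entry, and their levels are given in FPKM, fragments divided by exon length and by the size of the library, a unit in which genes can be compared. All 10 passed the filter of a mean of at least 1 FPKM over the libraries in each test.

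NF-kB is a family of dimeric transcription factors. In the canonical arm the inhibitors encoded by NFKBIA and NFKBIE hold NFKB1-containing dimers in the cytoplasm until a kinase complex marks the inhibitors for degradation, and TNFAIP3 encodes A20, an enzyme that edits ubiquitin chains and dampens that signal. In the non-canonical arm TRAF3 and BIRC3 keep the kinase encoded by MAP3K14, called NIK, at a low level, and receptors such as CD40 release it, so that the NFKB2 product is processed and pairs with RELB. Plasma cells and their tumour, multiple myeloma, are known to depend on NF-kB signals, and many of the pathway's inhibitors and subunits are themselves its transcriptional targets.

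Sequencing libraries of messenger RNA came from the human myeloma lines KMS18 and MM.1s, from RPMI8226 with forced expression of Mcl1, a protein that blocks apoptosis (the Mcl1 line), and from RPMI8226 itself. Each of the 4 backgrounds carried a short hairpin RNA (shRNA) against CD86, CD28 or Gapdh, or the empty hairpin vector, spelled pLK0.1 in the labels and called Vec. CD28 is a costimulatory receptor first known from T cells, CD86 is its ligand, and the Gapdh shRNA served as a control. There was 1 library per combination, 16 in all, so the 3 parental lines were the replicates for an shRNA and the 4 libraries of a background, each with its own shRNA, were the replicates for a background. The Mcl1 line is a single derived line. The labels name no separate cultures and no hairpin sequences, so the p-values given reflect variation among these libraries and lines, which may be technical.

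The libraries held 3914513 to 5900955 reads assigned to genes, probably counted per mate, so that fragments are fewer. Each targeted gene lay below its Vec level in every background, CD28 at 65.1% to 79.3%, CD86 at 44.1% to 76.3% and GAPDH at 10.7% to 53.0%. Over the parental lines the log2 changes were -0.47 for CD28 (limma adjusted p = 0.0295), -0.62 for CD86 (0.315) and -1.89 for GAPDH (1), so that CD28 alone passed. CD86 lay above Vec under CD28 shRNA, at 125% in KMS18, 282% in MM.1s, 211% in the Mcl1 line and 164% in RPMI8226. Its change there was 0.71 (limma adjusted p = 0.142). With Gapdh shRNA CD86 was at 139%, 203%, 94.2% and 94.1% of Vec in the same order. The CD28 shRNA libraries thus differ from the CD86 shRNA libraries in both genes. The summed level of 6 plasma cell markers was 614 to 1732 FPKM. The summed level of 5 T cell markers was 2.29 to 10.2 FPKM in KMS18, 14.8 to 26.1 in MM.1s, 0 to 0.159 in the Mcl1 line and 0 to 0.179 in RPMI8226. Of these 5, 1 was at 0 in all KMS18 libraries, 2 in all MM.1s libraries and 4 in each RPMI8226 background. Their median was at most 0.254 FPKM in KMS18 and 0.343 in MM.1s, so that the sums there came from few of the 5. Sums of 5 myeloid and 5 stromal markers stayed within 0 to 3.54 and 0.0597 to 0.841 FPKM.

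Promoter sequences of the members were read from RefSeq on GRCh38.p14, in windows of 250 bases before to 50 after an annotated start. They are shown because the same short element occurs in most of the members whose promoters could be read. Whether it bears on how the members differ between lines was not tested. The letters GGGNNTTTCC, a form of the known NF-kB site chosen after looking at these promoters, were searched on both strands. They occurred in 671 of 35116 windows (1.91%) and for 635 of 27305 genes (2.33%). The table held 7 members, of which 6 had a match and MAP3K14 had none; RELB, NFKBIE and CD40 had no entry. Capitals mark each match, as read on the strand of the gene. For NFKB1, TNFAIP3, BIRC3 and TRAF3 a stretch of 60 to 72 bases around the match is given, at chr4:102501285-102501344, chr6:137867167-137867238, chr11:102317260-102317319 and chr14:102777391-102777450, all on the plus strand. TNFAIP3 had 2 matches in its stretch, which do not overlap. The first base of the match lay 49 bases before the start in NFKB1, 67 and 55 in TNFAIP3, 199 in BIRC3 and 33 in TRAF3. A further annotated NFKB1 window, chr4:102501684-102501983, had no match.
NFKB1: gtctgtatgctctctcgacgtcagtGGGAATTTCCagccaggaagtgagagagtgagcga
TNFAIP3: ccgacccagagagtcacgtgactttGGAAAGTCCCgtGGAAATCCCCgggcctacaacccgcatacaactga
TRAF3: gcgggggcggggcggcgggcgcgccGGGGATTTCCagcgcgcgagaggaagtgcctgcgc
BIRC3: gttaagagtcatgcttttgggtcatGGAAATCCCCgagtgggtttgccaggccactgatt

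Whole windows are given for NFKBIA, which stands for the canonical inhibitors, and for NFKB2, the member whose level differed most with an shRNA. The NFKBIA window is chr14:35404700-35404999 on the minus strand, with the match starting 81 bases before the start. NFKB2 had 3 annotated windows, and the 2 with a match are chr10:102394328-102394627 and chr10:102395455-102395754 on the plus strand, with matches that begin 78 and 21 bases before the start. A match describes these letters only and is no measurement of binding.
NFKBIA: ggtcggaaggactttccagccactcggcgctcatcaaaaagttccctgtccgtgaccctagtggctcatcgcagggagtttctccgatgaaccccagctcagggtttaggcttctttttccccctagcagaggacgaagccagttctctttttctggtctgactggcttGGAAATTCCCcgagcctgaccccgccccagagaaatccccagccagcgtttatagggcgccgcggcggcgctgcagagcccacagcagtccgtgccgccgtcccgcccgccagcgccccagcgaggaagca
NFKB2, upstream start: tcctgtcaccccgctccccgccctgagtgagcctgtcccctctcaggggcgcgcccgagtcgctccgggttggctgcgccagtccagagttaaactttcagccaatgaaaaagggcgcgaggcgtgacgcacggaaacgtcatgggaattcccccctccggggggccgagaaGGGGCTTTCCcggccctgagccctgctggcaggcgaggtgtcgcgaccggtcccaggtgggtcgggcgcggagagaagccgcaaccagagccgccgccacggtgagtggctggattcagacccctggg
NFKB2, downstream start: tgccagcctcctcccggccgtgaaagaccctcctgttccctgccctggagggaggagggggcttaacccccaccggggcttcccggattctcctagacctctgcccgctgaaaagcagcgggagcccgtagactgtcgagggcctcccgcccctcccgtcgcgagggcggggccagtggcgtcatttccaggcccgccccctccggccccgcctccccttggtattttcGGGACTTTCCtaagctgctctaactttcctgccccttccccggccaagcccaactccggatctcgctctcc

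The 10 genes were expressed in a pattern set mainly by the line. All 10 were higher in MM.1s than in RPMI8226, where 69.1% of all genes tested differed and 35.9% were higher. In KMS18 7 were higher than in RPMI8226, where 70.3% of all genes differed and 35.2% were higher, and BIRC3 and CD40 had no read in any KMS18 library. These are levels of whole cultures, in which fewer expressing cells and less RNA per cell cannot be told apart. In the sentences that follow, values are ordered as CD86, CD28 and Gapdh shRNA and Vec.

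**Figure D1:**
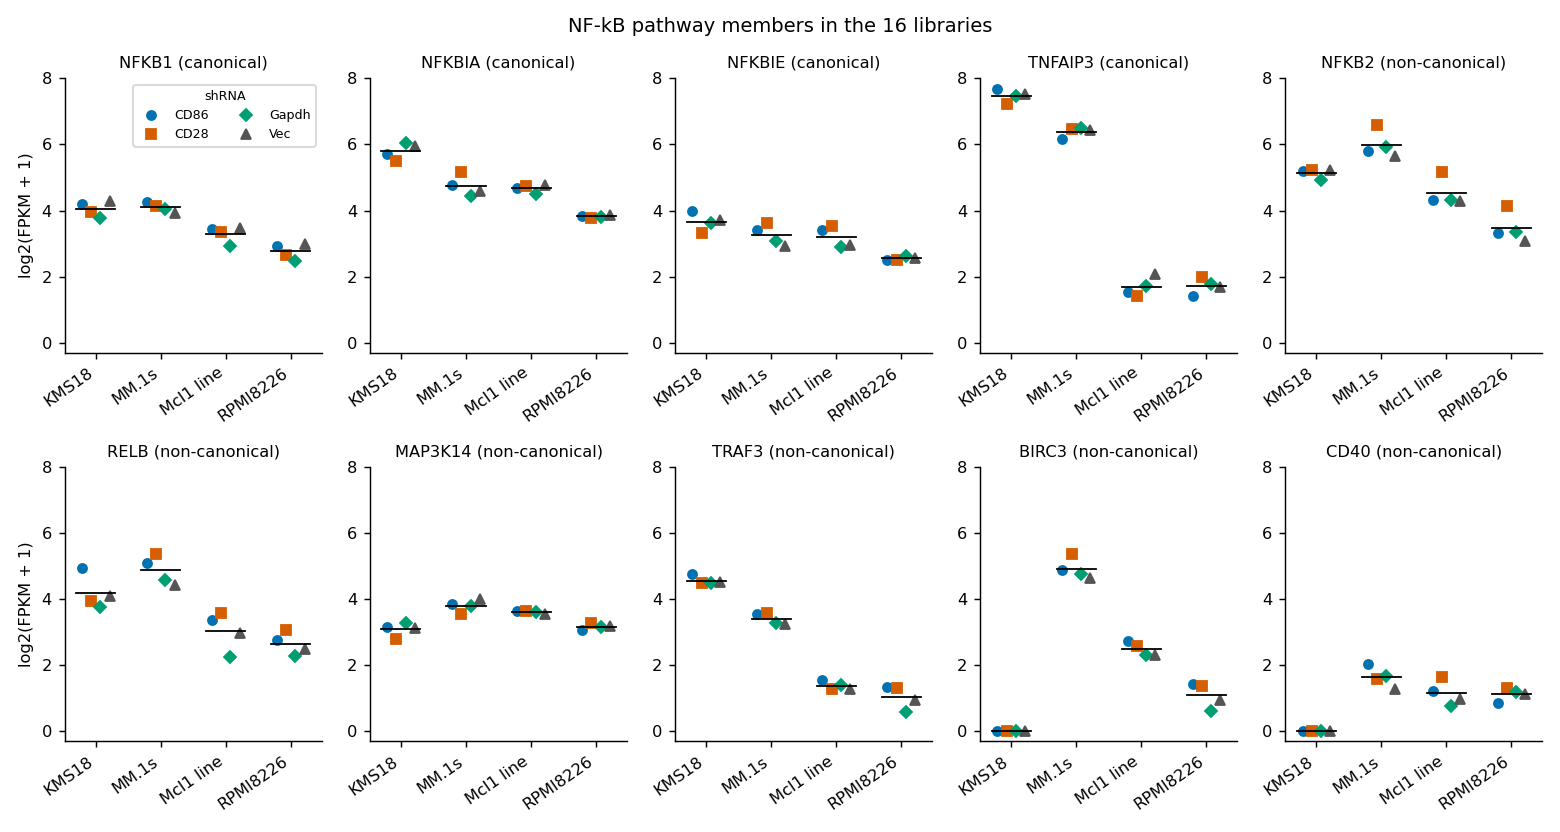
Levels of the 10 members in all 16 libraries. The y axis is log2(FPKM + 1), the x axis the background, each symbol 1 library by shRNA and each bar the mean of 4 libraries. TNFAIP3 and TRAF3 separate KMS18 and MM.1s from both RPMI8226 backgrounds, and BIRC3 and CD40 lie at 0 in KMS18. NFKB2 is highest in the CD28 shRNA library of every background, though in KMS18 only at 36.6 FPKM against 36.2 with Vec.

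In the canonical arm NFKB1, which encodes the p105 precursor of p50, had 17.2, 14.4, 12.6 and 18.4 FPKM in KMS18. It had 18.0, 16.8, 15.4 and 14.3 FPKM in MM.1s. It had 9.77, 9.13, 6.67 and 10.1 FPKM in the Mcl1 line, against 6.65, 5.30, 4.59 and 6.96 FPKM in RPMI8226. KMS18 and MM.1s overlapped each other and lay above every library of the 2 RPMI8226 backgrounds, while the Mcl1 line and RPMI8226 overlapped. The ratio of means to RPMI8226 was 2.67 in KMS18 and 2.74 in MM.1s (log2 1.28 and 1.33, SE 0.11 each, limma adjusted p = 1.31e-06 and 1.2e-06).

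NFKBIA encodes the main inhibitor of NF-kB dimers, IkB-alpha. It had 52.0, 43.8, 64.7 and 60.4 FPKM in KMS18, the highest of the 4 backgrounds. It had 26.5, 35.1, 20.8 and 23.1 FPKM in MM.1s and 24.7, 25.7, 21.8 and 26.4 FPKM in the Mcl1 line, which overlapped. RPMI8226 had 13.3, 12.6, 13.1 and 13.6 FPKM, below all libraries of the other backgrounds, and its spread was the smallest of any member in any background except MAP3K14 in the Mcl1 line (coefficient of variation 3.13% and 2.78%). NFKBIA was 4.20-fold higher in KMS18 and 2.01-fold higher in MM.1s than in RPMI8226 (log2 1.98 and 0.93, SE 0.16 each, limma adjusted p = 7.62e-07 and 0.000376).

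NFKBIE, which encodes the related inhibitor IkB-epsilon, followed the same order at lower levels. It averaged 11.8 ± 2.39 FPKM in KMS18, 8.76 ± 2.18 in MM.1s, 8.37 ± 2.10 in the Mcl1 line and 4.87 ± 0.244 in RPMI8226 (SD, n = 4 libraries each). The first 3 backgrounds overlapped their neighbours in that order, and RPMI8226 lay apart, at no more than 5.20 FPKM.

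TNFAIP3 varied most of the canonical members. It had 203, 147, 176 and 182 FPKM in KMS18 and 70.2, 87.4, 88.6 and 84.9 FPKM in MM.1s. The Mcl1 line had 1.90, 1.66, 2.29 and 3.24 FPKM and RPMI8226 had 1.64, 2.99, 2.42 and 2.22 FPKM. The 2 RPMI8226 backgrounds overlapped, and KMS18 and MM.1s lay apart from them and from each other. TNFAIP3 was 76.3-fold higher in KMS18 and 35.7-fold higher in MM.1s than in RPMI8226 (log2 5.75 and 4.67, SE 0.13 each, limma adjusted p = 3.76e-11 and 2.03e-10).

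In the non-canonical arm CD40, a receptor of the TNF receptor family, had the lowest level of the 10 members in MM.1s and the Mcl1 line and shared 0 with BIRC3 in KMS18, while in RPMI8226 TRAF3 and BIRC3 averaged about as little. It had 3.13, 2.03, 2.18 and 1.42 FPKM in MM.1s, 1.33, 2.12, 0.714 and 0.982 FPKM in the Mcl1 line and 0.812, 1.49, 1.29 and 1.21 FPKM in RPMI8226, on 14 to 69 reads per library. These 3 backgrounds overlapped, and KMS18 had 0 reads in all 4 libraries. Against a floor of 3 reads per library, CD40 in KMS18 was at least 7.42-fold lower than in RPMI8226 and at least 13.5-fold lower than in MM.1s. CD40 and BIRC3 passed the filter only through the lines that express them, so their calls in the comparisons with KMS18 are not counted as results.

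MAP3K14, the kinase of the arm, varied least. It had 7.92, 6.01, 8.78 and 7.82 FPKM in KMS18 and 13.4, 10.7, 12.9 and 14.9 FPKM in MM.1s. It had 11.5, 11.5, 11.2 and 10.8 FPKM in the Mcl1 line, against 7.41, 8.81, 7.87 and 8.06 FPKM in RPMI8226. MM.1s overlapped the Mcl1 line, KMS18 overlapped RPMI8226, and the 2 pairs lay apart. It was the single member not called between KMS18 and RPMI8226 (log2 -0.07, SE 0.12, 95% confidence interval -0.33 to 0.18, limma adjusted p = 0.588).

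TRAF3 and BIRC3, which encode parts of the complex that destroys NIK, were both higher in MM.1s than in RPMI8226 and parted in KMS18, where TRAF3 was highest and BIRC3 was at 0. TRAF3 had 26.0, 21.6, 21.4 and 22.0 FPKM in KMS18 and 10.9, 11.1, 8.63 and 8.45 FPKM in MM.1s. It had 1.91, 1.45, 1.67 and 1.45 FPKM in the Mcl1 line, against 1.53, 1.47, 0.493 and 0.932 FPKM in RPMI8226. The 2 RPMI8226 backgrounds overlapped and the other lines lay apart from them and from each other. TRAF3 was 20.5-fold higher in KMS18 and 8.81-fold higher in MM.1s than in RPMI8226 (log2 3.52 and 2.37, SE 0.12 each, limma adjusted p = 5.29e-10 and 1.64e-08).

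BIRC3, which encodes the ubiquitin ligase cIAP2, had 0 reads in all 4 KMS18 libraries. It had 28.3, 40.5, 26.0 and 24.2 FPKM in MM.1s. The Mcl1 line had 5.65, 5.03, 3.97 and 3.94 FPKM and RPMI8226 had 1.73, 1.60, 0.532 and 0.928 FPKM. No background overlapped another. BIRC3 in KMS18 was at least 394-fold lower than in MM.1s and at least 15.8-fold lower than in RPMI8226, against the floor of 3 reads per library, and in MM.1s it was 24.9-fold higher than in RPMI8226 (log2 3.82, SE 0.16, limma adjusted p = 3.39e-09).

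The subunit genes of the arm were highest in MM.1s. NFKB2, which encodes the p100 precursor of p52, had 35.7, 36.6, 29.1 and 36.2 FPKM in KMS18 and 54.6, 95.2, 59.4 and 49.7 FPKM in MM.1s. It had 19.1, 34.6, 18.9 and 18.6 FPKM in the Mcl1 line, against 9.09, 16.6, 9.12 and 7.42 FPKM in RPMI8226. MM.1s lay above all others, RPMI8226 below all others, and KMS18 overlapped the Mcl1 line through the CD28 shRNA library of that line. NFKB2 was 3.26-fold higher in KMS18 and 6.13-fold higher in MM.1s than in RPMI8226 (log2 1.67 and 2.52, SE 0.15 each, limma adjusted p = 1.29e-06 and 5.13e-08).

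RELB, the partner of the NFKB2 product, had 29.8, 14.4, 12.6 and 16.3 FPKM in KMS18 and 33.4, 40.6, 22.7 and 20.8 FPKM in MM.1s. It had 9.30, 11.0, 3.75 and 6.81 FPKM in the Mcl1 line, against 5.74, 7.36, 3.86 and 4.59 FPKM in RPMI8226. KMS18 overlapped MM.1s through its CD86 shRNA library, both lay above the 2 RPMI8226 backgrounds, and those overlapped. The ratio of means to RPMI8226 was 3.39 in KMS18 and 5.46 in MM.1s (log2 1.55 and 2.23, SE 0.19 each, limma adjusted p = 1.94e-05 and 1.16e-06).

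Read against the whole table, differences between lines were the rule. In MM.1s against RPMI8226 the members had a median log2 difference of 1.78, and the 11316 genes tested one of 0.03. CD40 was the weakest of these calls (log2 0.52, SE 0.16, limma adjusted p = 0.015), with ranges that overlapped. Without the Gapdh or the CD86 shRNA libraries its adjusted p was 0.0534 and 0.0964, and without the CD86 shRNA libraries its log2 difference was 0.29. In KMS18 against RPMI8226 7 members were called higher, where 35.2% of all genes were, and MAP3K14 was not called. BIRC3 and CD40, with 0 reads in KMS18, were lower and are left out of this count. The median over all 10 members was 1.41, and 0.01 over all genes.

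Between KMS18 and MM.1s 65.3% of all genes were called, 30.8% higher in KMS18 and 34.5% lower. Higher in KMS18 were the inhibitor genes NFKBIA (log2 1.05, SE 0.16), TNFAIP3 (1.08, SE 0.13) and TRAF3 (1.15, SE 0.12), with limma adjusted p from 7.6e-06 to 0.000163. Lower in KMS18 were NFKB2 (-0.85, SE 0.15), RELB (-0.68, SE 0.19) and MAP3K14 (-0.70, SE 0.12). BIRC3 and CD40, without a read in KMS18, were also lower and are not counted as calls. NFKB1 (-0.05, limma adjusted p = 0.73) and NFKBIE (0.40, 0.0508) did not pass, and without the CD28 shRNA libraries NFKBIE did (0.64, 0.00255). Beside these differences, the T cell marker sum given above was highest in MM.1s, and its part in them was not tested.

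**Figure D2:**
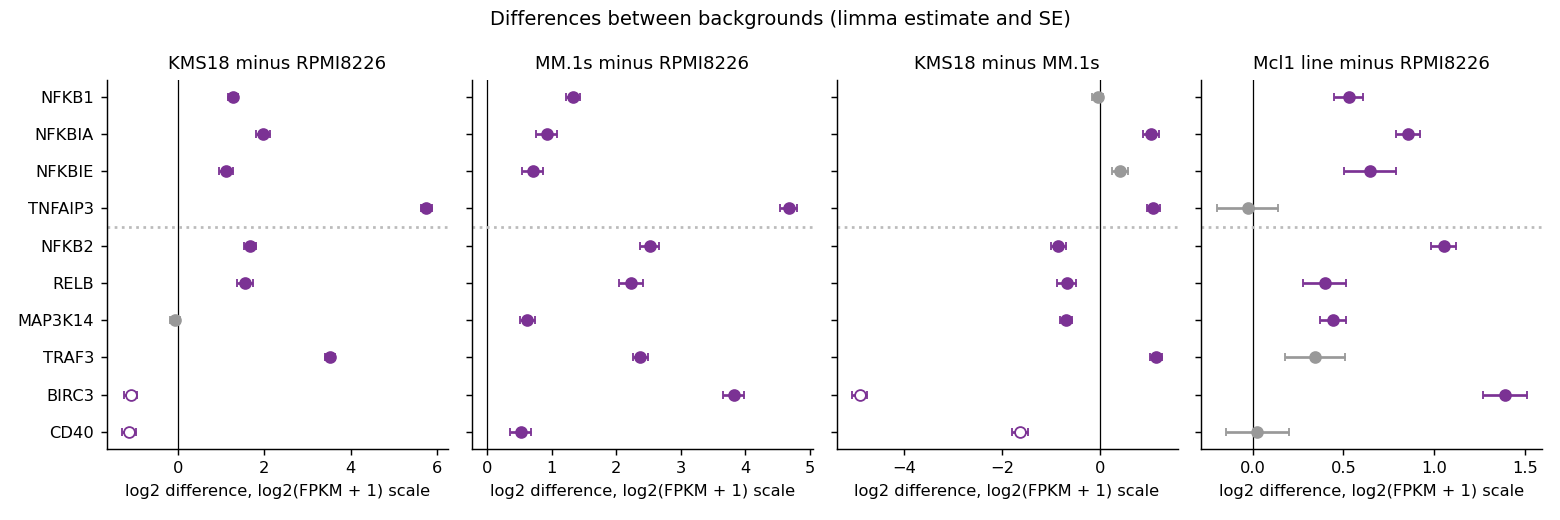
Log2 differences of each member between backgrounds, as the first minus the second in each panel, on the log2(FPKM + 1) scale, with bars of 1 SE from limma. Purple points passed an adjusted p of 0.05, grey points did not, and open points are members with 0 reads in KMS18, whose fitted values are no measure of size. TNFAIP3 stands at 5.75 and 4.67 in the parental comparisons with RPMI8226 but at -0.03 in the Mcl1 line.

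As BIRC3 had no read in KMS18, the genes beside it on chromosome 11 were examined, a step chosen after its values were seen. BIRC2, which encodes the related ligase cIAP1 and is the next gene, also had 0 reads in all 4 KMS18 libraries, against 13.9 ± 1.81 FPKM in MM.1s, 12.6 ± 1.40 in the Mcl1 line and 13.7 ± 0.831 in RPMI8226 (SD, n = 4 each). It was at least 114-fold lower in KMS18 than in MM.1s and at least 112-fold lower than in RPMI8226, against the same floor. YAP1, on the other side of BIRC3, had 0 reads in KMS18 but also in both RPMI8226 backgrounds, and averaged 0.479 FPKM in MM.1s. Beyond these, TMEM123 averaged 53.1 FPKM in KMS18, 96.9 in MM.1s, 152 in the Mcl1 line and 120 in RPMI8226, and CEP126 averaged 1.04 FPKM in KMS18 and 1.97 in MM.1s and was near 0 in both RPMI8226 backgrounds.

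Genes without a read were rare. Of 9791 genes at 1 FPKM or more in both other parental lines, 94 (0.960%) had 0 FPKM in all KMS18 libraries. The same count was 39 of 9600 (0.406%) in MM.1s and 43 of 9770 (0.440%) in RPMI8226. Around TRAF3 on chromosome 14, the 4 genes on each side differed in pattern. RCOR1, the neighbour before TRAF3, averaged 6.70 FPKM in KMS18, 3.52 in MM.1s, 5.15 in the Mcl1 line and 4.84 in RPMI8226. AMN, the neighbour after it, averaged 0.0538 FPKM in KMS18 and 0.115 in MM.1s and had 0 in both RPMI8226 backgrounds. CDC42BPB, the gene after AMN, averaged 1.73 FPKM in KMS18, 1.70 in MM.1s, 1.13 in the Mcl1 line and 1.08 in RPMI8226. Farther out, KMS18 was highest for CINP (20.8 FPKM, against 11.3 in RPMI8226) and TECPR2 (2.70, against 0.747), while ANKRD9 was at 0 in KMS18 and averaged 1.28 FPKM in RPMI8226. TNFAIP2, a gene induced by TNF that lies close by, was near 0 in KMS18 and MM.1s (0.0181 and 0.123 FPKM) and averaged 15.2 FPKM in the Mcl1 line and 13.1 in RPMI8226. Beside CD40 on chromosome 20, NCOA5 averaged 20.8 FPKM in KMS18 and 10.6 in RPMI8226.

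**Figure D3:**
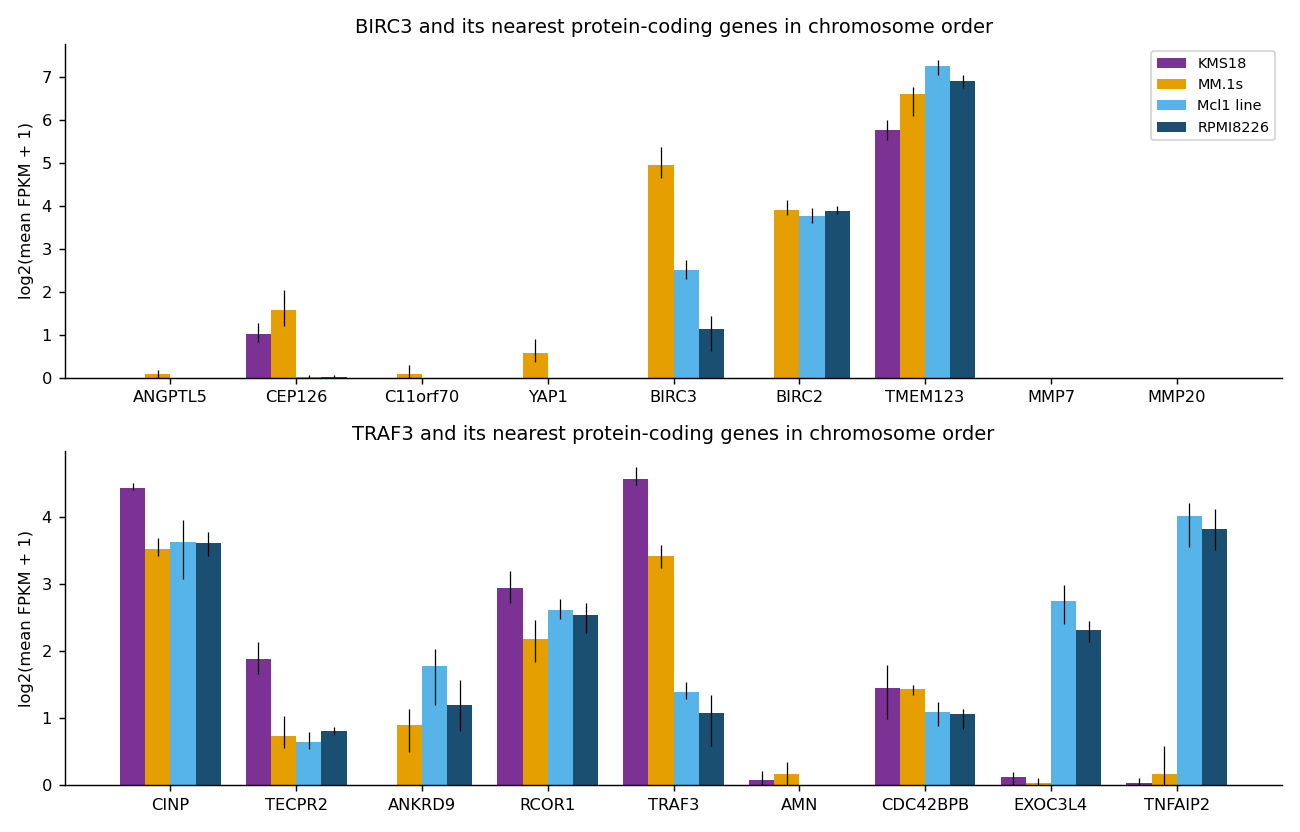
Levels of BIRC3 and TRAF3 and of the 4 nearest protein-coding genes on each side that the table holds, in chromosome order, as log2(mean FPKM + 1) of 4 libraries per background, with bars from the lowest to the highest library. In KMS18 BIRC3 and BIRC2 are both at 0 while TMEM123 and CEP126 have reads, and TRAF3 is low in both RPMI8226 backgrounds, where RCOR1 averages 5.15 and 4.84 FPKM and AMN is at 0.

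Overexpression of Mcl1 in RPMI8226 was compared with RPMI8226 itself, paired by shRNA. MCL1 averaged 150 ± 24.1 FPKM in the Mcl1 line and 54.5 ± 5.82 in RPMI8226 (SD, n = 4 each; log2 1.43, SE 0.09, limma adjusted p = 4e-05). Of the 10 members 7 were higher in the Mcl1 line and 0 lower, where 34.4% of 11024 genes were called, 19.5% higher and 14.9% lower. The members' median log2 difference was 0.49, and 0.03 over all genes.

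All but TNFAIP3 of the canonical members were among the 7. NFKBIA rose by 0.86 on the log2 scale (SE 0.07, limma adjusted p = 0.000121), NFKBIE by 0.65 (SE 0.14, 0.0115) and NFKB1 by 0.53 (SE 0.08, 0.00228), each higher in 4 of 4 shRNA pairs. In the non-canonical arm BIRC3 rose most, by 1.39 (SE 0.12, limma adjusted p = 0.000216), a ratio of means of 3.88. NFKB2 rose by 1.05 (SE 0.07, 5.92e-05) and MAP3K14 by 0.44 (SE 0.07, 0.00357), also in 4 of 4 pairs.

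RELB was called with 0.40 (SE 0.12, limma adjusted p = 0.0383), was higher in 3 of 4 pairs and lower with Gapdh shRNA, and lost its call in 6 of 9 alternative settings. TNFAIP3 (-0.03, SE 0.17, adjusted p = 0.919) and CD40 (0.03, SE 0.17, 0.924) did not pass, and neither did TRAF3 (0.34, SE 0.17, 95% confidence interval -0.05 to 0.73, 0.152). The myeloid marker sum was 1.58 to 3.54 FPKM in the Mcl1 line and 0.161 to 0.446 in RPMI8226, and its part in these differences was not tested. With a single derived line, Mcl1 itself and any other difference between the 2 cultures cannot be told apart.

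The shRNA comparisons asked whether the pathway follows CD86 or CD28, and none of the 10 members was called by limma in any of them. The largest estimates were those of NFKB2 and RELB, both in the non-canonical arm. Under CD28 shRNA 0 members were called, where 2.83% of all genes were, with 1 member at an unadjusted p under 0.05 and 1 called by voom on recovered reads. That member in both cases was NFKB2. Its level under CD28 shRNA was 101% of Vec in KMS18, 192% in MM.1s, 186% in the Mcl1 line and 224% in RPMI8226.

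KMS18 thus stood apart, with 36.6 FPKM under CD28 shRNA and 36.2 with Vec, while in the other 3 backgrounds the CD28 shRNA library lay above the remaining 3 libraries by a wide margin. Over the 3 parental lines the change was 0.67 on the log2 scale (SE 0.17, 95% confidence interval 0.30 to 1.04, limma adjusted p = 0.0606), higher in 3 of 3 lines. Without KMS18 it was 0.99 (limma adjusted p = 0.0203), without MM.1s 0.54 (0.375) and without RPMI8226 0.47 (0.282). With all 16 libraries it was 0.72 (limma adjusted p = 0.00499), and with no replicate block for the line 0.67 (1). The fit with all 16 libraries adds the Mcl1 line as a replicate beside RPMI8226, its own parent, so its replicates are not independent. In the authors' deposited table, the log2 change was 0.72 with a false discovery rate of 0.000652. By its name that table holds fits without the Gapdh and Mcl1 libraries, so its values and those of limma differ in libraries and method. CD28 shRNA libraries were also the shallowest of each background, at 4311353 reads in genes in KMS18, 4000275 in MM.1s, 3914513 in the Mcl1 line and 4577443 in RPMI8226, and the part of depth in this difference was not tested.

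RELB under CD28 shRNA was at 88.5% of Vec in KMS18, 195% in MM.1s, 162% in the Mcl1 line and 160% in RPMI8226. KMS18 was again the background without a higher level, and the mean change of 0.45 (SE 0.22, limma adjusted p = 0.281) did not pass. BIRC3 was at 167% of Vec in MM.1s, 128% in the Mcl1 line and 172% in RPMI8226, with a change of 0.38 (SE 0.18, limma adjusted p = 0.277) that includes KMS18 at 0 in both libraries. In the authors' deposited table BIRC3 had a log2 change of 0.76 with a false discovery rate of 0.00484, and NFKB2 and BIRC3 were the 2 members under 0.05 there, where 5.38% of its 14975 tested genes were. The estimates of the canonical members lay between -0.15 for NFKB1 and 0.08 for NFKBIE. NFKBIA was at 72.5% of Vec in KMS18 and 152% in MM.1s, and NFKBIE at 73.3% and 173%, so that these 2 lines lay on opposite sides of Vec.

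Under CD86 shRNA 0 members were called by limma, where 0.627% of all genes were, with 2 at an unadjusted p under 0.05 and 0 by voom. RELB was above Vec in every background, at 183% in KMS18, 161% in MM.1s, 137% in the Mcl1 line and 125% in RPMI8226. Its change over the parental lines was 0.59 (SE 0.22, 95% confidence interval 0.11 to 1.06, limma adjusted p = 0.283). TRAF3 was likewise above Vec in every background, at 118%, 129%, 132% and 164% in the same order of backgrounds, with a change of 0.32 (SE 0.14, limma adjusted p = 0.366). NFKB2, the gene with the largest estimate under CD28 shRNA, had 0.12 (SE 0.17, limma adjusted p = 0.798) under CD86 shRNA. In the authors' deposited table no member had a false discovery rate under 0.05 for CD86 shRNA against Vec, where 2.04% of genes did, and RELB had 0.0842.

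**Figure D4:**
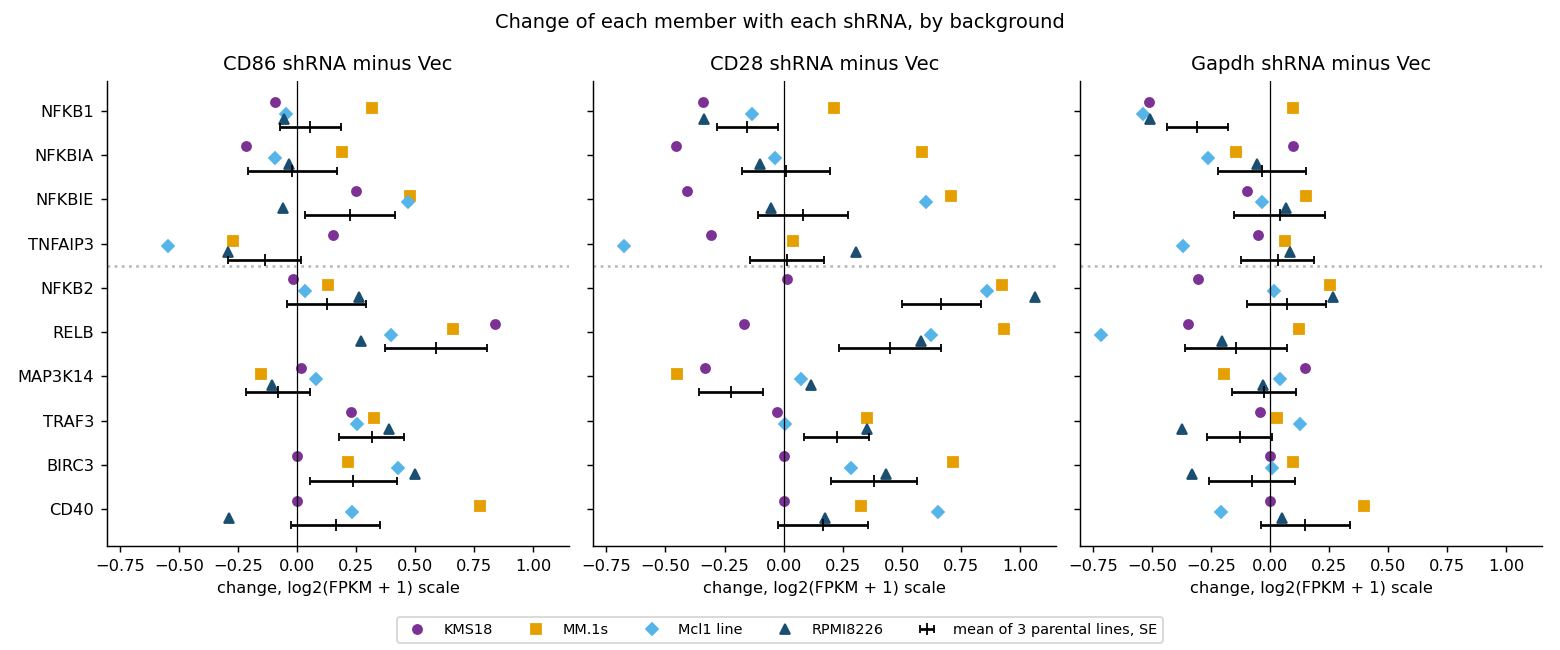
Change of each member with each shRNA relative to Vec, on the log2(FPKM + 1) scale. Symbols are the 4 backgrounds, 1 pair of libraries each, and black bars are the limma estimate over the 3 parental lines with 1 SE. NFKB2 under CD28 shRNA is near 0 in KMS18 and between 0.86 and 1.06 in the other backgrounds, and RELB under CD86 shRNA is above 0 in all 4.

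CD86 and CD28 shRNA were also compared with each other. None of the members passed (0 called, where 9.51% of all genes were; 1 at an unadjusted p under 0.05, and 1 by voom). NFKB2 under CD86 shRNA was at 97.6% of its CD28 shRNA level in KMS18, 57.3% in MM.1s and 54.7% in RPMI8226. Its log2 difference over the parental lines was -0.54 (SE 0.17, limma adjusted p = 0.0677). It was -0.80 without KMS18 (0.0269), -0.42 without MM.1s (0.354) and -0.41 without RPMI8226 (0.269). The authors' deposited table gave -0.62 with a false discovery rate of 0.00256 for NFKB2, the single member under 0.05 there, where 10.3% of genes were. The other 9 members had limma adjusted p from 0.329 to 0.991. These comparisons share libraries with each other, so their values are not independent.

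With Gapdh shRNA against Vec limma called 0 members and 0 of all genes (0%), voom called 0 members, and 1 member was at an unadjusted p under 0.05. It was NFKB1, with a change of -0.31 (SE 0.13, limma adjusted p = 1), lower in KMS18 and RPMI8226 and higher in MM.1s. The difference between the response of the Mcl1 line and the mean response of the parental lines was tested as an interaction, with the spread taken from the parental lines. Limma called 0 members for CD86, CD28 and Gapdh shRNA, where 0%, 0.00881% and 0% of 11349 genes were called, with 0 members at an unadjusted p under 0.05 and 0 by voom in each. The smallest p was that of TNFAIP3 under CD28 shRNA (difference -0.69, SE 0.32, 95% confidence interval -1.39 to 0.01, limma adjusted p = 1).

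Other genes of the pathway were examined as lists of canonical components (18 genes, all tested), non-canonical components (3), other inhibitors and regulators (12), receptors and ligands (9 tested of 17) and NF-kB target genes (18 tested of 28, and 17 in the Mcl1 comparison). Under CD28 shRNA 1 target rose and 1 fell of 18 tested, where 0.716% of all genes were higher and 2.11% lower. The list median was 0.29, against 0.00 over all genes. WNT10A, a secreted signalling protein, rose by 0.68 (SE 0.12, limma adjusted p = 0.0143). The gene of the anti-apoptotic protein BCL-xL, BCL2L1, fell by 0.54 on the log2 scale (SE 0.11, 0.0363). No gene of the other 4 lists passed there, and none of the 5 lists had a call under CD86 shRNA or Gapdh shRNA.

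Between CD86 and CD28 shRNA genes of 4 lists passed, where 5.41% of all genes tested were higher with CD86 shRNA and 4.1% lower. Of 18 targets 2 were higher and 2 lower. Of 12 other inhibitors and regulators 1 was higher and 1 lower, and of 9 receptors and ligands 1 was lower. Lower with CD86 shRNA were WNT10A (-0.69), the adaptors TAB2 (-0.48) and TRAF1 (-0.65), the regulator TNIP1 (-0.48), a partner of A20, and the TNF receptor TNFRSF1A (-0.67). Higher were BCL2L1 (0.71), the deubiquitinase CYLD (0.55) and the mitochondrial enzyme SOD2 (0.57), with limma adjusted p from 0.00553 to 0.0366 over these genes.

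In MM.1s against RPMI8226 11 targets were higher and 6 lower of 18 tested, where 35.9% of all genes were higher and 33.2% lower, with medians of 0.93 and 0.03. In KMS18 against RPMI8226 8 targets were higher and 6 lower (median 0.22), close to the shares of all genes (35.2% and 35.1%). Some list genes, CCL3 and TNFAIP2 among them, passed the filter through the lines in which they are high. Such genes had to differ, and the counts and medians above include them, so these describe the list and are not read as results. IL2RG, a cytokine receptor chain, had 223 to 233 FPKM in KMS18 and 144 to 307 in MM.1s, against 1.14 to 2.09 in RPMI8226. PLEK, which encodes pleckstrin, averaged 48.0 ± 9.65 FPKM in KMS18 and 26.2 ± 4.03 in MM.1s, against 1.83 ± 0.792 in RPMI8226 (SD, n = 4 each), and the chemokine gene CCL3 averaged 278 and 183 FPKM, against 0.365 FPKM in RPMI8226, from 8 reads in 1 library. TNFAIP2, given above, is counted among the 6 targets lower in each line, though its call there is not a result. ICAM1 and TRAF1 also averaged less than in RPMI8226. ICAM1 had 21.2 FPKM in KMS18 and 9.81 in MM.1s, against 74.1 in RPMI8226. The MM.1s mean rests on the CD28 shRNA library, with 29.5 FPKM, against 2.12 with CD86 shRNA, 4.61 with Gapdh shRNA and 2.98 with Vec. Under CD28 shRNA ICAM1 was at 155% of Vec in KMS18, 992% in MM.1s, 133% in the Mcl1 line and 93.5% in RPMI8226. TRAF1 had 0.693 and 1.69 FPKM, against 5.98.

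Of the 18 canonical components 7 were higher and 7 lower in KMS18 against RPMI8226, near the shares of all genes given above. In MM.1s against RPMI8226 6 were higher, also near the share of all genes, and 2 lower. RELA, the main partner of the NFKB1 product, averaged 35.7 ± 3.32 FPKM in KMS18, 36.9 ± 3.81 in MM.1s, 39.7 ± 3.03 in the Mcl1 line and 38.1 ± 1.19 in RPMI8226 (SD, n = 4 each), ranges that overlapped. REL, a further subunit gene, averaged 3.32 FPKM in KMS18, 0.432 in MM.1s, 1.82 in the Mcl1 line and 1.88 in RPMI8226. Of 9 receptors and ligands tested, 2 were higher and 6 lower in KMS18 against RPMI8226 (median -1.84). In MM.1s 3 were higher and 5 lower (median -0.46), where the shares of all genes were those given above. Lower in both lines were TNFRSF8 (log2 -3.03 in KMS18 and -1.18 in MM.1s) and TNFRSF12A (-2.45 and -2.63). TNFRSF17, the plasma cell receptor BCMA, was higher in both. It had 377 to 471 FPKM in KMS18 and 99.1 to 163 in MM.1s, against 31.2 to 52.2 in RPMI8226. BCL3, a nuclear regulator of p50 and p52 dimers, was higher in both lines than in RPMI8226 (log2 1.19 in KMS18 and 2.19 in MM.1s, limma adjusted p = 5.01e-05 and 4.14e-07).

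In the Mcl1 line against RPMI8226 9 targets were higher and 3 lower of 17 tested, where 19.5% of all genes were higher and 14.9% lower, with medians of 0.27 and 0.03. CD74, the invariant chain of MHC class II, averaged 407 ± 43.0 FPKM in the Mcl1 line and 152 ± 12.7 in RPMI8226 (SD, n = 4 each; log2 1.41, limma adjusted p = 7.74e-06). PLEK (1.74) and CXCL10 (1.74) were also higher. LTBR, the lymphotoxin receptor that feeds the non-canonical arm, averaged 2.05 ± 0.561 FPKM in the Mcl1 line and 0.0678 in RPMI8226, on 114 and 4 reads over 4 libraries. LTBR passed the filter through the Mcl1 line alone, so it had to differ and no test is given. BCL3 rose by 0.88 (limma adjusted p = 0.000414). Among canonical components MALT1, a protease that relays antigen receptor signals, was higher (0.65, limma adjusted p = 0.00271) and 0 of 18 were lower.

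Likeness of pattern was described by Pearson's r of log2(FPKM + 1) over the 16 libraries and 11349 genes, in which libraries share their background and depth. NFKB2 was most like BCL3 (r 0.98), CD59 (0.96) and KLHL5 (0.95), and after subtraction of each background's mean most like LAMP3 (0.94), ZNF367 (0.91) and BCL3 (0.91). BCL3 had 6.47, 20.8, 8.01 and 4.02 FPKM under CD28 shRNA in KMS18, MM.1s, the Mcl1 line and RPMI8226, against 6.25, 11.8, 4.42 and 1.80 FPKM with Vec, so that it too differed least in KMS18. NFKBIA was most like TICAM1, HLA-DMA and NUP160 (0.96 each), and after subtraction most like FGF2 (0.87), UGT8 (0.85) and SLC17A5 (0.82).

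Among the members themselves the highest r of levels was that of TNFAIP3 and TRAF3 (0.97), which are high in KMS18 and MM.1s and low in both RPMI8226 backgrounds. After subtraction of the background means that pair had r -0.12, and the highest were TRAF3 with BIRC3 (0.83) and NFKBIE with RELB (0.78). BIRC3 did not vary in KMS18, where it was at 0 in all libraries. In RPMI8226 TRAF3 rested on 24 to 82 reads per library and BIRC3 on 23 to 82. NFKB2 and RELB had 0.91 over levels and 0.62 after subtraction. NFKBIA and BIRC3, inhibitor genes of the 2 arms, had -0.23 over levels and 0.42 after subtraction.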

How the data were processed

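The authors deposited 1 table with FPKM values and exon lengths per gene for 16 libraries, and, for 3 comparisons, their log2 fold change, p-value and false discovery rate. The name of the table points to fits of these comparisons without the Gapdh and Mcl1 libraries, and they cover 14975 genes. The limma fit of the parental lines kept the Gapdh libraries and covers 11316 genes, so the authors' false discovery rates and the limma values are not directly comparable. Builds named in the submitters' processing notes are GRCh37, mm9 and hg19, and tools are edgeR 3.12.1, R 3.2.2, TopHat2 2.0.13 and Picard, with no role given. Whether counting used strand is not given, so reads of antisense and overlapping genes may be mixed. FPKM times exon length gave whole reads for 100% of values (tolerance 0.02 of a read), and 76.1% of low read numbers were even.

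Log2(FPKM + 1) was fitted with limma 3.58.1 (R 4.3.3, eBayes with a trend) over every gene whose mean reached 1 FPKM. Parental lines (12 libraries) had terms for shRNA and line, as libraries of a line deviated together (r 0.87 to 0.95 in 18 pairs). The Mcl1 line was fitted with RPMI8226 (8 libraries) with terms for line and shRNA, and the interaction over 16 libraries. Tests were two-sided, adjusted by Benjamini-Hochberg over all genes, with a threshold of 0.05. The log2(FPKM + 1) scale understates changes of low genes. Members and lists were chosen with earlier results of these data known. Named are all members, the targets and MCL1, up to 4 list genes per comparison past the threshold, and the 3 genes most like NFKB2 and NFKBIA, and others were named after their values were seen. Differences per shRNA pair were added after seeing the data. Alternatives were the pseudocount, the filter, scaling, voom on recovered reads, each line or shRNA left out, the block, all 16 libraries and a joint control. Intervals and floors cover counting error or library spread only. A result for 1 gene of the lists is not reported here.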

Additional observations from a re-analysis of the deposited data

Results flagged for a closer look

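In each background the 4 libraries were searched for a single library far from the others (Dixon's test at the 95% level, which chance passes in about 1 in 20 groups), and 3 of 38 groups had such a library. NFKB2 in the Mcl1 line had 34.6 FPKM in the CD28 shRNA library, against 18.6 to 19.1 FPKM in the other 3. NFKB2 in KMS18 had 29.1 FPKM in the Gapdh shRNA library, against 35.7 to 36.6 FPKM in the others. TRAF3 in KMS18 had 26.0 FPKM in the CD86 shRNA library, against 21.4 to 22.0 FPKM in the others. In none of 30 comparisons of the Mcl1 line with the parental lines did the interaction pass.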

How the results depend on the processing

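Of 939 alternative values of the members, 867 kept their direction and their side of the threshold, 0 called values reversed, 12 gained a call, 8 lost one and 52 changed sign with no call in either setting. For CD28 shRNA against Vec the number of members called was 0, and it was 1 (NFKB2) with voom, with all 16 libraries and with the mean of Vec and Gapdh shRNA as control (adjusted p = 0.0235, 0.00499 and 0.0333), and 0 to 1 with a line left out. For CD86 against CD28 shRNA it was 0, and 1 (NFKB2) with voom and with all 16 libraries (0.0291 and 0.00656), and 0 to 1 with a line left out. The cause of these changes in the count was not tested. With all 16 libraries the Mcl1 line stands as a replicate beside its parent RPMI8226, so those replicates are not independent.

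With no replicate block for the line, 0 members and 0 of all genes were called in every shRNA comparison, where with the block 320 genes were called under CD28 shRNA, 71 under CD86 shRNA and 1076 between them. With no replicate block for the shRNA, RELB in the Mcl1 line had an adjusted p of 0.342 and NFKBIE in KMS18 against MM.1s one of 0.0463, and 2459 in place of 3793 genes were called in the Mcl1 comparison. RELB also lost its call with no filter, with median-of-ratios scaling and without the Vec, CD28 or CD86 libraries (0.0508 to 0.134). NFKBIE passed with that scaling and with voom (0.042 and 0.0331), and TRAF3 passed in the Mcl1 line with voom (0.57, 0.0322). Counts over all genes ranged from 0 to 1036 under CD28 shRNA, 0 to 282 under CD86 shRNA and 0 to 2122 between them, with the highest for all 16 libraries, and from 0 to 2 under Gapdh shRNA. Without KMS18, MM.1s or RPMI8226 the count under CD28 shRNA was 33, 38 and 132. Interactions called up to 115 genes with no filter.

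With 1 library per combination an shRNA effect is read from 3 lines, and CD40 and the low values of TRAF3 and BIRC3 in RPMI8226 rest on 14 to 82 reads per library.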
